A study of Homo sapiens with 8 samples.

Results

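The genes described here are the amino acid transporter genes of the SLC1A, SLC3A, SLC7A, SLC36A, SLC38A and SLC43A families. They were chosen by symbol alone from the protein-coding genes of the GENCODE annotation, and 40 of 20033 genes met the rule. TAZ binding at these genes was read from 4 lists of ChIP-seq peaks, stretches of the genome where DNA recovered with an antibody to TAZ piled up above background. Peaks whose summit lay no more than 3 kb from a transcription start site (TSS) of the gene are called promoter peaks, and an assigned peak had its summit within 100 kb of a TSS of the gene and nearer to it than to that of any other protein-coding gene. Of the 40 genes, 28 had at least 1 promoter or assigned peak and 12 had none.

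All libraries came from 1 human cell line, MCF10A, which is a mammary epithelial line that is not tumorigenic. Every group carried the Tet-inducible TAZ-4SA transgene, an activated TAZ that Hippo kinases phosphorylate less well, so the cells without Dox are uninduced transgenic cells rather than parental ones. The 4 groups were cells without Dox and cells that received Dox at 0.05 µg/ml for 24, 48 and 72 h, and each group had 1 TAZ library and 1 IgG library, 8 libraries in all. The labels attach 1 peak list to both libraries of a group, and the sources do not state whether IgG was used as control in peak calling. With 1 TAZ library per time there was no replicate error, and no difference below carries a p-value.

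On chromatin TAZ depends on partner proteins that read the sequence, chiefly TEAD factors and often AP-1 beside them. Amino acid transporters carry amino acids across the plasma membrane or out of the lysosome, and many of them work in pairs, since exchangers use one amino acid to bring in another. In epithelial and tumour cells LAT1 (SLC7A5) with its heavy chain 4F2hc (SLC3A2) brings in leucine and other large neutral amino acids that feed mTORC1, and xCT (SLC7A11) with the same heavy chain brings in cystine for glutathione.

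Each list was longer than the one before it, with 2431, 2469, 11767 and 38667 peaks at no Dox, 24, 48 and 72 h. Fold enrichment, the deposited ratio of the pileup to the local background, is given below with a 95% Poisson interval. It is the interval of the pileup, the number of ChIP fragments over the summit, with the local background held fixed. These intervals cover counting error of the pileup only, so intervals of fold that are apart can also reflect a changed background. Genome-wide background was 1.49, 1.42, 2.84 and 2.01 fragments at no Dox, 24, 48 and 72 h, and at that background the lowest fold that could be called was 4.01, 4.14, 3.38 and 3.33. A gene with no peak therefore had no enrichment above these limits, which is not a measured zero.

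In the 24 h list 7 peaks were assigned to transporter genes, each to a different gene, and all 7 overlapped a peak by at least 1 bp at both 48 and 72 h. When 50% of each interval had to be shared, 3 of the 7 had a partner at 48 h and 0 at 72 h. For 6 of them the summit with the 100 bp on either side is printed, because these sites had a peak at the earliest time on Dox. The SLC7A5 site also had one without Dox. Capitals mark matches to the TEAD consensus, spelled ACATTCC or GCATTCC and searched on both strands, so that GGAATGT and GGAATGC are the same sites read on the other strand. The sequences are the plus strand of hg38, and none overlaps an annotated exon.
SLC7A5, chr16:87870696-87870896: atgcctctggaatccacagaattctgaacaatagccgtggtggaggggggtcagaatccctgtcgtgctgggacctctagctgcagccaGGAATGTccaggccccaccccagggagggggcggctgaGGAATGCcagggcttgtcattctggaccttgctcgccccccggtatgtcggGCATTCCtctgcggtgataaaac
SLC7A7, chr14:22807597-22807797: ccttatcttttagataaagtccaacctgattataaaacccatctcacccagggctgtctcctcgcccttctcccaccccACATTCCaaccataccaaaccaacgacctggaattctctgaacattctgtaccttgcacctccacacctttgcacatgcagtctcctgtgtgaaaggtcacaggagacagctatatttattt
SLC38A1, chr12:46261647-46261847: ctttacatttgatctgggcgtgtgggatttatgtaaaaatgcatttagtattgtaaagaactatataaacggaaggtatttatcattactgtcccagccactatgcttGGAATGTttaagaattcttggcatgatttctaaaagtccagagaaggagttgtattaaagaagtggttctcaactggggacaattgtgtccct
SLC7A4, chr22:21037835-21038035: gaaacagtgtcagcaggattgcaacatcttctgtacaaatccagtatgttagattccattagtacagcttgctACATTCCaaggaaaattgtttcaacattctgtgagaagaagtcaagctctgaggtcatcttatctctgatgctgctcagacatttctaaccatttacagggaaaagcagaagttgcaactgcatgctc
SLC7A8, chr14:23142289-23142489: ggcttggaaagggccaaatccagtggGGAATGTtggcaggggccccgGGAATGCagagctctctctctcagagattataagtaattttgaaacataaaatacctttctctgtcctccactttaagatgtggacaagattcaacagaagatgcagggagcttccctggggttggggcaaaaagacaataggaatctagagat
SLC7A11, chr4:138259420-138259620: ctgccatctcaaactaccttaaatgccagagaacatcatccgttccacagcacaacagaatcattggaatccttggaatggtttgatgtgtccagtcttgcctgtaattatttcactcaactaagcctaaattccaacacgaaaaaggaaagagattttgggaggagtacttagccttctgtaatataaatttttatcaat
The window at SLC7A5 held 3 TEAD matches, that at SLC7A8 held 2, and those at SLC7A7, SLC38A1 and SLC7A4 held 1 each. The SLC7A11 window held no match, though it holds ggaatgg, which differs from GGAATGC in the last letter only. None of these 6 windows held the AP-1 consensus (TGAGTCA or TGACTCA). In the whole 24 h list 53.3% of distal peaks and 47.5% of promoter peaks held a TEAD match, against 4 of 6 distal peaks and the 1 promoter peak of the transporter genes.

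Promoter peaks were found at 4, 1, 8 and 23 of the 40 transporter genes at no Dox, 24, 48 and 72 h. These are 10.0%, 2.5%, 20.0% and 57.5% of the family. Over all protein-coding genes the shares were 9.4%, 2.55%, 9.09% and 58.4%, and over the 332 other SLC genes they were 10.2%, 2.41%, 9.34% and 55.4%. The transporter genes thus stood near the background without Dox, at 24 h and at 72 h, and above it at 48 h, by a count of 8 genes in a single library. That count was 5 with a window of 1 kb and 3 with the canonical TSS only, and the count without Dox was 1 at −log10 q of at least 5. Assigned peaks were found at 6, 7, 15 and 28 transporter genes at no Dox, 24, 48 and 72 h, or 15.0%, 17.5%, 37.5% and 70.0%, against 10.3%, 7.78%, 25.0% and 63.8% of all genes. Among the other SLC genes the shares were 9.64%, 6.63%, 27.7% and 71.1%. When all lists were scaled to the lowest background coverage and held to 1 threshold, 4, 1, 8 and 22 transporter genes had a promoter peak. Shares of all genes were not counted under these alternatives, so whether the difference at 48 h holds under them was not tested.

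**Figure D1:**
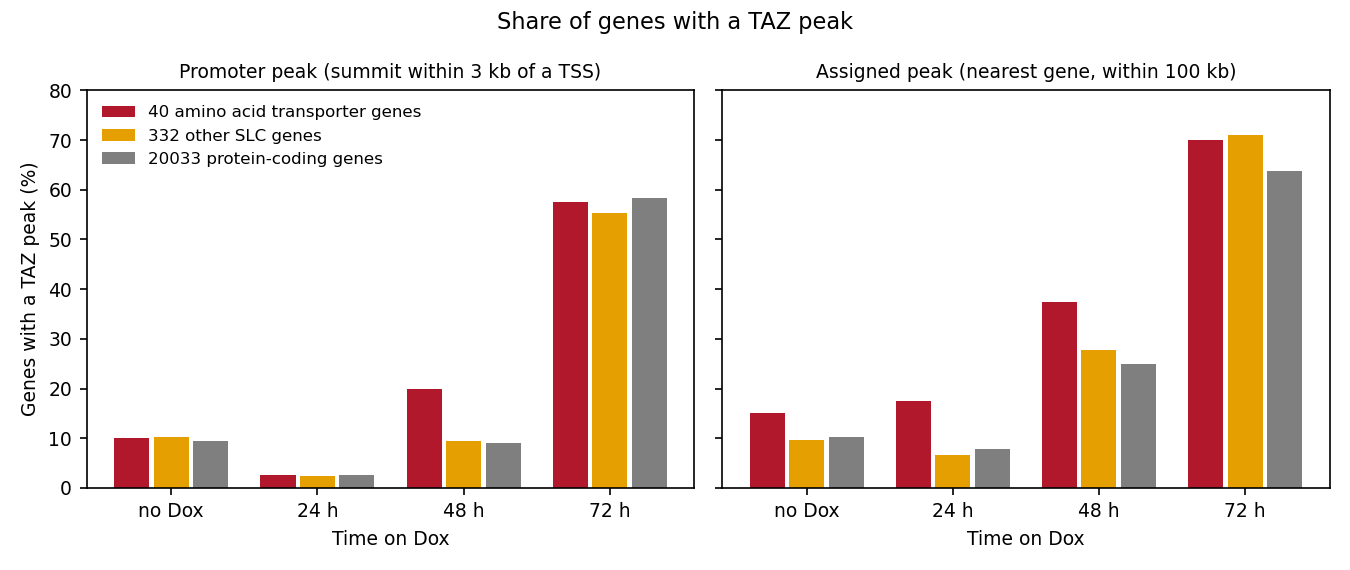
Share of genes with a TAZ peak, in percent (vertical axis), at each time on Dox (horizontal axis), for the 40 transporter genes, the 332 other SLC genes and all 20033 protein-coding genes. At 72 h the promoter share was 57.5%, 55.4% and 58.4% in that order, and each bar is a count over genes in 1 library per time, with no error bar.

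The peaks assigned to transporter genes numbered 7, 7, 44 and 105 at no Dox, 24, 48 and 72 h. Peaks farther than 3 kb from any TSS made up 3, 6, 36 and 63 of these, or 42.9%, 85.7%, 81.8% and 60%, against 31.6%, 75.7%, 78.9% and 58.6% of the assigned peaks of all genes. Median fold enrichment of the assigned peaks was 4.27, 7.98, 6.95 and 7.0, against 5.62, 7.57, 6.52 and 7.10 for the assigned peaks of all genes. The medians thus lay close to those of all genes in the 3 Dox lists and below them without Dox, and a few sites were far stronger than the median. Of the 23 genes with a promoter peak at 72 h, 18 had a summit within 3 kb of the canonical TSS. The other 5, SLC1A2, SLC1A7, SLC7A7, SLC7A8 and SLC7A13, had one only at the TSS of another transcript.

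**Figure D2:**
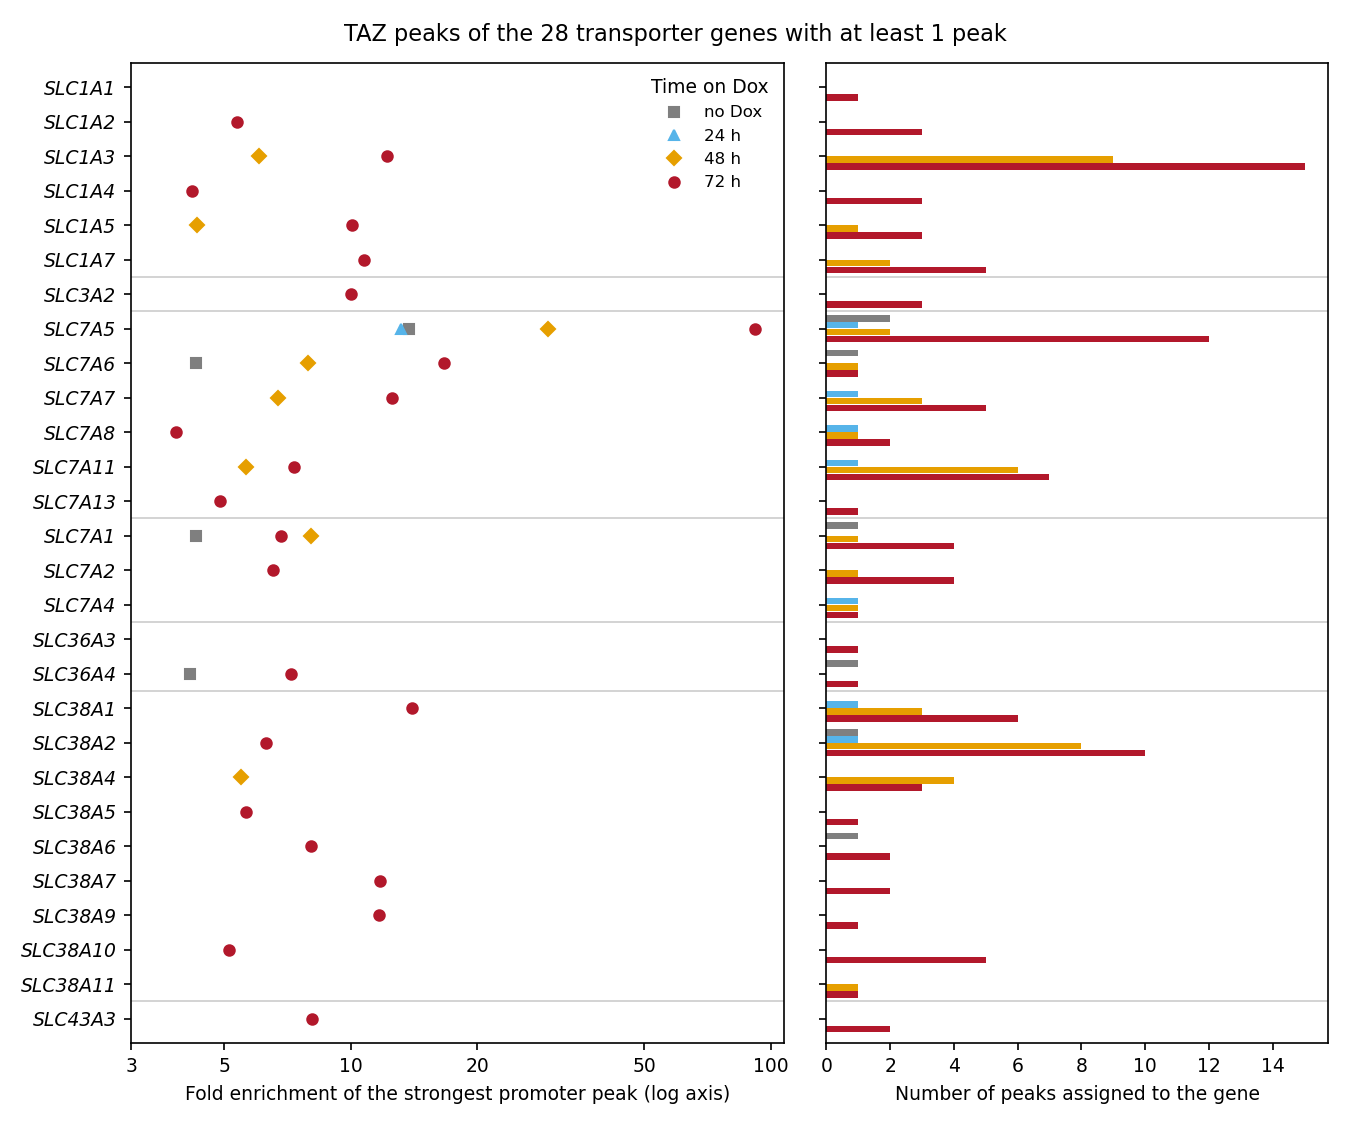
The 28 transporter genes with a TAZ peak, one row per gene and grouped by class. Left, fold enrichment of the strongest promoter peak on a log axis, one symbol per time; right, the number of assigned peaks. SLC7A5 reached 91.6 at 72 h, no other gene exceeded 16.7 at any time, and SLC1A3 had the most assigned peaks, 15 at 72 h.

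SLC7A5 encodes LAT1, the light chain that exchanges large neutral amino acids. Its upstream site, with a summit at chr16 position 87870791 and 1284 bp from the TSS, was the 1 region of the 111 at transporter genes that was called in all 4 lists. Without Dox its fold enrichment was 13.8 (interval 10.2 to 18.2). Dox for 24 h gave 13.2 (10.1 to 16.8), Dox for 48 h gave 29.5 (25.03 to 34.6) and Dox for 72 h gave 91.6 (84.0 to 99.7), from pileups of 48, 62, 150 and 531 fragments. The values without Dox and at 24 h lay within each other's intervals, whereas those at 48 and 72 h lay above both and apart from each other. The ratio of 72 h to no Dox was 6.65, and it was 5.89 when the pileup was divided by the background without the pseudocount. Among genes with a promoter peak, SLC7A5 held rank 320 of 1884 without Dox and rank 55 of 510, 13 of 1820 and 5 of 11700 after 24, 48 and 72 h of Dox. Among all 38667 peaks of the 72 h list its upstream peak was number 17.

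SLC7A5 had 12 assigned peaks at 72 h, against 2 without Dox, 1 at 24 h and 2 at 48 h, and 148 genes had more at 72 h. Of its 12 regions 8 lay in its introns, and all 8 of these were called at 72 h only, at folds from 3.49 to 10.4. A second region that was present early lay past the end of the gene, 62459 bp downstream of the TSS, with 3.78 (2.35 to 5.80) without Dox, no peak after 24 h, a value of 6.60 (4.72 to 8.99) after 48 h and one of 18.4 (14.8 to 22.6) after 72 h. Its summit without Dox lay apart from the summits at 48 and 72 h, which fell together.

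SLC3A2 encodes 4F2hc, the heavy chain that carries LAT1, xCT and the y+LAT exchangers to the membrane. No list before 72 h had a peak at it. At 72 h it had 3, the strongest in an intron at 10.0 (7.24 to 13.6) and 654 bp downstream of the canonical TSS. The rest reached 2.84 and 2.72. The heavy chain of the kidney and gut, SLC3A1 (rBAT), had no peak in any list.

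SLC7A7 encodes y+LAT1, which exports arginine and lysine in exchange for neutral amino acids. An intronic site 7735 bp downstream of its canonical TSS, with a summit at chr14 position 22807700, had 10.7 (7.43 to 14.8) at 24 h, then 21.1 (17.6 to 25.2) at 48 h, then 68.7 (60.4 to 77.9) at 72 h, from pileups of 33, 122 and 242 fragments. The 3 intervals did not overlap, no peak was called there without Dox, and at 72 h the site was number 49 of the whole list. Further peaks lay at the TSS of longer SLC7A7 transcripts, at 12.6 (9.27 to 16.7) and 7.61 (5.11 to 10.9) at 72 h. Another such peak, at 6.45, shared its promoter window with MRPL52, a mitochondrial ribosomal protein gene whose TSS was the nearer one, so it was assigned to MRPL52.

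SLC7A6 encodes y+LAT2, a close relative of y+LAT1. Its promoter had 4.27 (2.31 to 7.36) without Dox and no peak after 24 h. Later it had 7.90 (5.81 to 10.5) after 48 h and 16.7 (13.3 to 20.8) after 72 h. The summit without Dox lay 21 bp from the canonical TSS in the 5′ UTR, and those at 48 and 72 h lay 779 and 799 bp from it in the intron, so the early and the late peaks marked different positions. The 16.7 of SLC7A6 was the second highest promoter value of the family at 72 h and held rank 1101 of 11700 genes.

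SLC7A8 encodes LAT2, which takes both large and small neutral amino acids. Its intronic site gave nearly the same fold at 24 h, 7.29 (4.54 to 11.2), and at 48 h, 7.21 (5.22 to 9.72), and 14.4 (11.2 to 18.2) at 72 h. The interval at 72 h lay above that at 48 h and only just above that at 24 h, with limits of 11.201 and 11.184. The pileups at 48 and 72 h, 41 and 67 fragments, had intervals that overlapped. The 24 h value rested on a pileup of 19 fragments. SLC7A13, a light chain of the kidney, had a single peak, 4.88 at 72 h. SLC7A9 and SLC7A10, the light chains b0,+AT and Asc-1, had none.

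SLC7A11 encodes xCT, the exchanger that takes in cystine and releases glutamate. Its peaks numbered 0, 1, 6 and 7 at no Dox, 24, 48 and 72 h, and most lay outside its promoter. The site 17128 bp upstream varied little over the time course: it had 12.4 (8.45 to 17.6) in the 24 h list, 13.2 (9.86 to 17.3) in the 48 h list and 16.7 (12.8 to 21.4) in the 72 h list, and these 3 intervals all overlapped. A nearer site, 9834 bp upstream, was not called at 24 h and had 10.4 (8.04 to 13.2) at 48 h and 29.1 (23.7 to 35.4) at 72 h. The pileups at this nearer site were 65 and 97 fragments, with intervals that overlapped. The local background there was 5.36 at 48 h and 2.37 at 72 h. The peak at the canonical TSS was called at 72 h only, at 7.31 (4.75 to 10.8). None of the SLC7A11 regions held a TEAD or an AP-1 match, in the exact spellings searched, within 100 bp of its summits.

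**Figure D3:**
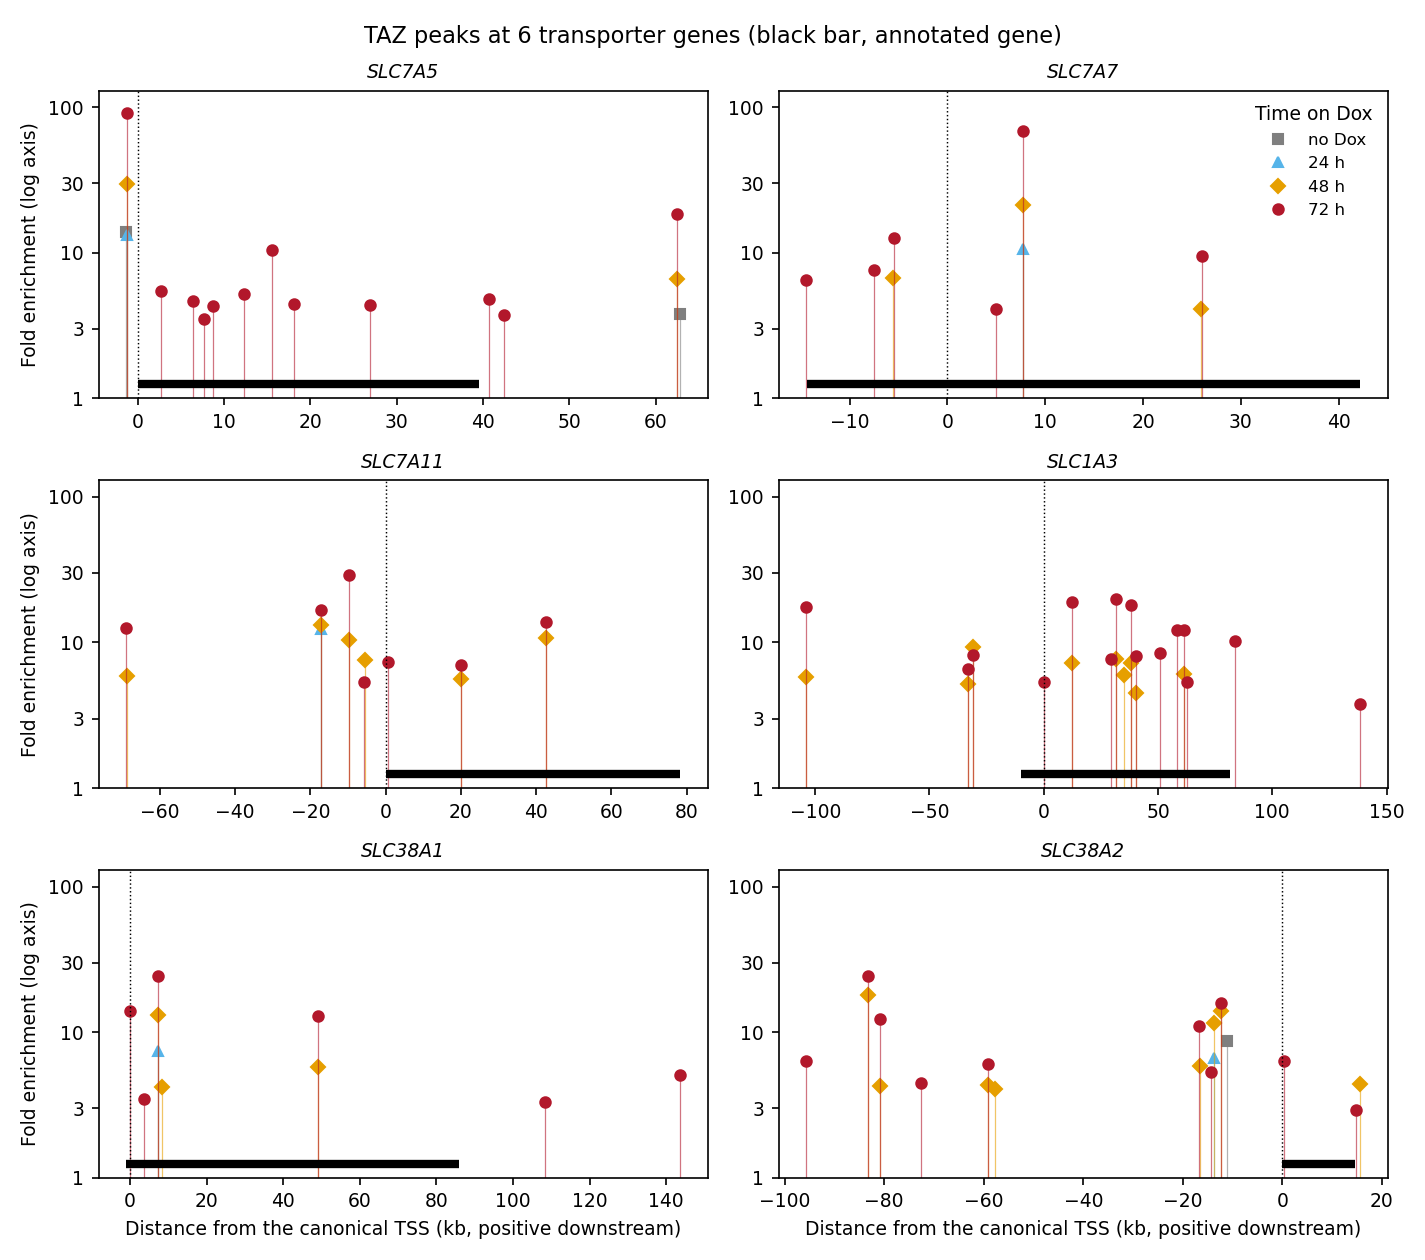
TAZ peaks at SLC7A5, SLC7A7, SLC7A11, SLC1A3, SLC38A1 and SLC38A2 by distance of the summit from the canonical TSS in kb (horizontal axis, positive downstream) and fold enrichment (vertical log axis); colours and symbols give the time and the black bar is the annotated gene. The strongest summits of SLC7A5 (91.6) and SLC7A7 (68.7) each carried a value at 24, 48 and 72 h at the same place, whereas the peaks of SLC1A3 started at 48 h.

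Of the 5 cationic transporters and relatives in the SLC7 family, 3 had a peak, all 3 with an assigned peak at 72 h, against 63.8% of all genes. SLC7A1 (CAT1), the main arginine and lysine importer of many cells, had a promoter peak of 4.28 (2.25 to 7.54) without Dox, one of 8.04 (5.67 to 11.1) after 48 h and one of 6.81 (4.72 to 9.53) after 72 h. Their intervals overlapped, and the summits lay 573, 1312 and 350 bp from the TSS. SLC7A2 (CAT2) had a site 29979 bp upstream with 12.4 (9.47 to 15.9) at 48 h and 21.0 (16.5 to 26.3) at 72 h. Its pileups were 59 and 73 fragments, with intervals that overlapped, over a local background of 3.85 and 2.52. The upstream site of SLC7A4, a relative with no established substrate, was already called at 24 h, at 7.98 (5.18 to 11.8), and reached 14.2 (11.4 to 17.6) in the 48 h list and 19.8 (15.9 to 24.3) in the 72 h list. That site lay 5127 bp from the nearest SLC7A4 TSS, in introns of ENSG00000226872 and ENSG00000290799. Another protein-coding gene has a TSS 11 bp from one of SLC7A4, so the assignment to SLC7A4 is uncertain. No peak was found at SLC7A3 (CAT3) or assigned to SLC7A14.

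Among the 7 SLC1 genes, which encode glutamate transporters and neutral amino acid exchangers, no peak was present without Dox or at 24 h, and 12 were assigned at 48 h and 30 at 72 h. Of all genes only 10.3% without Dox and 7.78% at 24 h had an assigned peak, and 7 genes are too few to set apart from that. SLC1A3, the glutamate transporter EAAT1, held 9 of the 12 and 15 of the 30, and 61 genes of the genome had more assigned peaks at 72 h. Its strongest sites were intronic and had 19.9 (15.5 to 25.1) at 72 h against 7.70 (5.72 to 10.2) at 48 h, 18.9 (14.5 to 24.2) against 7.17 (5.11 to 9.82), and 18.1 (14.3 to 22.6) against 7.19 (5.18 to 9.72). All 3 pairs of intervals were apart. At these sites the pileups were 69 against 48, 61 against 37 and 76 against 40 fragments. The local background was lower at 72 h, at 2.52 against 5.36, 2.28 against 4.30 and 3.24 against 4.71. The intervals of the pileups alone overlapped at the first and second site. The peak at its canonical TSS was called at 72 h only, at 5.31 (3.31 to 8.15).

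SLC1A5 encodes ASCT2, which brings glutamine into many proliferating cells. A peak at the TSS of an inner transcript had 10.1 (7.63 to 13.1) at 72 h and 4.30 (2.82 to 6.32) at 48 h, and the canonical TSS had only 3.33 (2.14 to 4.96) at 72 h. SLC1A7 (EAAT5), known from the retina, had 22.3 (18.8 to 26.3) at 72 h and 10.9 (8.20 to 14.3) at 48 h at a site 3749 bp upstream. SLC1A4 (ASCT1) and the glutamate transporters SLC1A1 (EAAT3) and SLC1A2 (EAAT2) had peaks at 72 h only, up to 10.4, 5.46 and 5.44.

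The SLC38 genes encode sodium-coupled neutral amino acid transporters, and 9 of the 11 had a peak. All 9 had an assigned peak at 72 h, as did 63.8% of all genes and 71.1% of the other SLC genes. SLC38A1 (SNAT1), a glutamine importer, had an intronic site 7286 bp downstream of its canonical TSS with 7.42 (4.67 to 11.3) in the 24 h list, 13.1 (10.0 to 16.8) in the 48 h list and 24.4 (20.2 to 29.1) in the 72 h list. The interval at 72 h lay above both earlier ones, and those at 24 and 48 h overlapped. Its promoter peak, 14.0 (10.6 to 18.1), was called at 72 h only.

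SLC38A2 (SNAT2), whose expression rises in cells short of amino acids, had 1, 1, 8 and 10 assigned peaks at no Dox, 24, 48 and 72 h. Of its 10 regions 9 lay outside the promoter, most of them upstream within a stretch that also holds the long non-coding transcript SLC38A4-AS1. The strongest, 83303 bp upstream in an exon of that transcript, had 24.5 (20.5 to 29.0) at 72 h and 18.1 (14.7 to 22.1) at 48 h, with intervals that overlapped, and it held an AP-1 match. About 12363 bp upstream the values were 15.8 (12.4 to 19.9) at 72 h and 13.9 (11.0 to 17.5) at 48 h with a TEAD match. The peak without Dox in the same merged region, at 8.68 (6.18 to 11.9), had its summit 11061 bp upstream, in a window of 67.7% GC with no TEAD match, and was therefore another site. At the TSS the only peak was 6.29 (4.34 to 8.85), at 72 h.

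SLC38A4 (SNAT4), best known from liver, had 19.9 (15.3 to 25.5) at 72 h and 15.9 (12.2 to 20.4) at 48 h at an intronic site. It was the 1 gene of the family with a promoter peak at 48 h, of 5.47 (3.61 to 7.97), and none at 72 h. SLC38A6 had an intronic peak with 11.97 (9.11 to 15.4) at 72 h and 4.17 (2.53 to 6.54) without Dox, and none between. Its promoter peak, 8.05 (5.76 to 11.0) at 72 h, shared the window with TRMT5, a tRNA methyltransferase gene.

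SLC38A9 and SLC38A7, both of the lysosome, had promoter peaks at 72 h alone. SLC38A9, which senses lysosomal arginine for mTORC1, had 11.7 (9.08 to 14.8), 83 bp from the nearest TSS, and SLC38A7, which exports glutamine from lysosomes, had 11.8 (8.94 to 15.2). SLC38A5 and SLC38A10 had promoter peaks of 5.63 and 5.13 at that time, and SLC38A11 had assigned peaks of 5.41 at 72 h and 3.45 at 48 h at different sites.

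In the proton-coupled SLC36 family, SLC36A4 had an intronic peak of 4.14 (2.18 to 7.29) near an inner TSS without Dox, from a pileup of 10 fragments, which no later list contained. At 72 h it had a peak of 7.196 (5.02 to 10.0) at its canonical TSS instead. SLC36A3 had 1 peak of 4.43. SLC43A3, which belongs to the family by sequence but carries purine nucleobases, had promoter peaks up to 8.08 at 72 h, 2 of them in windows shared with the gene ENSG00000254979. The leucine transporters SLC43A1 (LAT3) and SLC43A2 (LAT4) had none.

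The 12 genes without a peak were SLC1A6, SLC3A1, SLC7A3, SLC7A9, SLC7A10, SLC7A14, SLC36A1, SLC36A2, SLC38A3, SLC38A8, SLC43A1 and SLC43A2. Not one of them had a summit within its annotated body in any list. The distance from their TSSs to the nearest summit ran from 9639 bp at SLC38A3 to 137339 bp at SLC7A3. SLC7A14 fell just outside the limit of 100 kb, since it was the nearest gene to a peak of 19.2 at 72 h that lay 103643 bp from its TSS. At the other edge, the farthest peaks that were kept lay 95631 bp from SLC38A2, at 6.38, and 94961 bp from SLC38A4, at 9.01, both at 72 h. Several of the 12 are known from kidney, gut or brain, but SLC7A13, SLC38A4 and SLC1A7, known from kidney, liver and retina, did have peaks. A link of peaks to expression was not tested.

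Merging overlapping peaks over the 4 lists gave 111 regions, 46 at promoters and 65 elsewhere. Regions called at 72 h only numbered 68, or 61.3%, against 66.5% of the 39430 regions of the genome. Regions called at 48 and 72 h numbered 27 (24.3% against 21.3%), and those called at 24, 48 and 72 h numbered 6 (5.41% against 4.52%), all outside promoters. Of the 68 at 72 h only, 37 lay at promoters, with the 68 at a median fold of 5.44, while the 27 called from 48 h had a median of 12.2 at 72 h and the 6 called from 24 h one of 18.2. Early calling needed a site to pass the limits of the shorter lists, so this grouping selected on strength. Medians over all regions of the genome were not taken, and the order was not shown to be particular to transporter genes. Of the regions first called without Dox, the 4 that also held peaks at 48 and 72 h had a median of 16.3 at 72 h, and the 1 that held one again at 72 h alone had 11.97. These 4 are merged regions, and in none of them did the summit without Dox lie within 250 bp of one at 48 h. At 72 h only that of SLC7A1 did, so the median of 16.3 mostly describes other sites than those called without Dox.

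**Figure D4:**
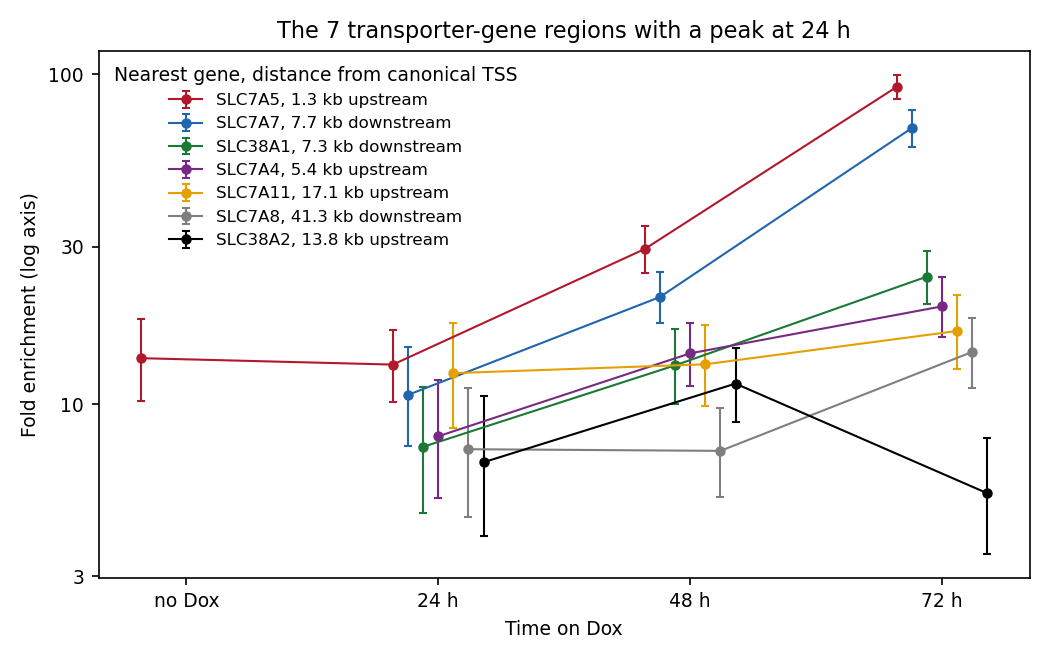
Fold enrichment (vertical log axis) at each time on Dox (horizontal axis) of the 7 transporter-gene regions called at 24 h, with 95% Poisson intervals as bars; points are offset sideways for legibility. SLC7A5 and SLC7A7 reached 91.6 and 68.7 at 72 h, above all others, and the SLC38A2 region peaked at 11.5 at 48 h, with its 72 h summit at another position of the same merged region.

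Where the summits of 2 lists lay within 250 bp of each other, the same site could be followed. From 48 to 72 h there were 34 such sites at transporter genes. Fold enrichment was higher at 72 h at 32 and lower at 2, against 91.1% higher over all such sites of the genome. Fold intervals were apart at 20 of the 34. At some of these, among them sites of SLC7A2, SLC7A8 and SLC7A11, the intervals of the pileups alone overlapped. The median ratio of 72 h to 48 h was 1.94, with a range of 0.884 to 3.26, and over the 10406 such sites of the genome it was 1.89. From 24 to 72 h all 6 matched sites were higher at 72 h, as were 97.6% of those of the genome. Intervals were apart at 5, barely so at SLC7A8. The median ratio was 2.88, against 2.83 over 2267 sites. From 24 to 48 h, 6 of 7 sites were higher at 48 h, against 83.9% of those of the genome. Without the pseudocount 5 of 7 were higher, and the SLC7A11 ratio was 0.853 in place of 1.06. Intervals were apart at 2 (SLC7A5 and SLC7A7), and the median ratio was 1.77, against 1.44. The ratios of SLC7A5 and SLC7A7 for 72 h over 24 h were 6.96 and 6.45, and that of SLC7A11 was 1.34.

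Within 100 bp of the summit, a TEAD match was found in 23 of 63 distal transporter peaks at 72 h (36.5%, against 34.3% of all distal peaks) and in 14 of 36 at 48 h (38.9% against 42.2%). At promoters it was found in 7 of 44 at 72 h (15.9% against 15.7%). The AP-1 consensus was found in 8 of 63 distal peaks at 72 h (12.7% against 20.5%) and 7 of 36 at 48 h (19.4% against 20.5%), and in 6 of 44 promoter peaks at 72 h (13.6% against 7.91%). The presence of a match describes the letters only, and binding by a TEAD or AP-1 factor was not measured.

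Other genes of amino acid handling were counted in the same way, in lists chosen with earlier results of these data known. Their shares are therefore descriptive, and no set test was run. Promoter peaks at 72 h were found at 16 of 16 genes of the amino acid response, at 29 of 32 genes of mTORC1 and its lysosomal amino acid sensors (90.6%), at 11 of 13 genes of cystine and glutathione metabolism (84.6%) and at 17 of 28 amino acid transporters of other families (60.7%), against 58.4% of all genes. Without Dox the counts were 4, 7, 1 and 2 (9.4% of all genes), at 24 h they were 1, 1, 0 and 0 (2.55%), and at 48 h they were 1, 1, 4 and 1 (9.09%). In the amino acid response list EIF2AK4 (GCN2, the kinase that senses uncharged tRNA), DDIT4 and DDIT3 had the highest values at 72 h, 13.8, 12.2 and 11.2. DDIT4 also had 3.71 without Dox and 3.23 at 48 h. In the sensing list SEH1L, a subunit of the GATOR2 complex, had 12.1, 22.3 and 38.4 at 24, 48 and 72 h, followed by LAMTOR2 at 21.7 and RPTOR at 17.6, both at 72 h only. In the glutathione list GPX4, which removes lipid peroxides with glutathione, had 26.5 at 72 h, 8.20 at 48 h and 6.13 without Dox. GGT5 had 18.9 at 72 h only, and NFE2L2 had 11.8 at 72 h and 9.46 at 48 h. Among the other transporters SLC17A7 (24.1), SLC25A18 (12.4) and CTNS, the lysosomal cystine exporter (9.97), led at 72 h. SLC17A7 also had 4.50 without Dox, and SLC25A18 had 6.53 without Dox and 7.78 at 48 h. SEH1L was the only one of these 12 leading genes with a promoter peak at 24 h.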

How the data were processed

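TAZ ChIP-seq of MCF10A cells was analysed from 4 peak lists. According to the methods of the study, reads were trimmed and mapped to hg38 with BWA, and MACS2 called peaks at a false discovery rate of 0.01. The version of neither tool is given in the sources used here. The authors deposited fold enrichment as a ratio with a pseudocount of 1, −log10 of the p-value and of the q-value, and the offset of the summit in bp. The lists hold no column of another series. The sequence of 1 of the 7 regions called at 24 h is not reported here.

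The pileup and the background at each summit were solved jointly from the fold and the Poisson p-value, within 0.003 on the −log10 scale, since the lists give no read totals. Summits were annotated with GENCODE version 44, coordinates are 1-based, and distances are to the nearest TSS of any transcript unless the canonical one is named. Regions were joined by an overlap of 1 bp. Intervals are exact 95% Poisson intervals. There was 1 TAZ library per time, so no test was run. Python 3.11.15, pandas 2.3.3, numpy 2.4.6, scipy 1.17.1 and matplotlib 3.10.9 were used, and the solver and the assignment of peaks were tested on simulated data.

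The genes and lists were chosen with earlier results of these data known. Every transporter gene could be named, with the 3 genes of highest fold enrichment at 72 h within 3 kb of a TSS from each related list and coding genes that share a promoter window. Alternatives were a 1 kb window, coding or canonical transcripts only, interval overlap, −log10 q of at least 5, lists scaled to equal coverage, 50 kb, nearest gene body, an overlap of 50%, motif windows of 50 bp to each side in place of 100 bp and fold enrichment without the pseudocount.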

Additional observations from a re-analysis of the deposited data

How the results depend on the processing

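Of 71 values under an alternative, 58 stayed within 1.5 times the main value and 13 did not. With a promoter window of 1 kb, 2 transporter genes had a promoter peak without Dox (4 in the main count), 0 at 24 h (1, since the SLC7A5 site lies farther away), 5 at 48 h (8) and 22 at 72 h (23). With the canonical TSS only, an alternative chosen after seeing the data, 3 genes had one at 48 h. The shares of all genes were not counted under these alternatives. At −log10 q of at least 5, the genes with a promoter peak without Dox numbered 1, the genes with an assigned peak 2 (6) and the assigned peaks 2 (7), so most peaks without Dox lay near the threshold. When partners had to share 50% of each interval, 1 of 6 peaks without Dox was called again at 72 h, 3 of 7 peaks at 24 h at 48 h, 0 of 7 at 72 h, and 25 of 41 peaks at 48 h were called again at 72 h. The 72 h peaks were wider, at a median of 821 bp over the whole list against 408 bp at 24 h. Within 50 bp of the summit the AP-1 consensus was in 1 peak at 48 h (7) and 9 at 72 h (14). Leaving out a replicate was not possible with 1 library per time. The median ratios at matched sites without the pseudocount, also chosen after seeing the data, were 1.98 for 72 h over 48 h, 2.49 for 72 h over 24 h and 1.48 for 48 h over 24 h. Depth differed between the lists, and its part in the number of peaks was not tested.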
